A study of Mus musculus with 18 samples.

Results

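The transcripts described here encode 9 transcription factors that set and maintain the identity of hepatocytes: the nuclear receptors Hnf4a and Nr5a2, the forkhead factors Foxa1, Foxa2 and Foxa3, the CCAAT/enhancer-binding proteins (C/EBP) Cebpa and Cebpb, and the homeodomain factors Onecut1 and Prox1. They were taken by name from the expression table, where all 9 of the 54532 listed genes were found, and all 9 had a mean of at least 1 FPKM (fragments scaled to the length of the transcript and the size of the library) and were tested. Liver RNA of 18 C57BL/6 mice (C57BL/6J in the study's methods) was sequenced in 3 groups of 6. NC mice received normal chow. HFD mice received a high-fat diet for 14 weeks, were not given SZ-A and, by the study's methods, received saline. SZ-A mice received the same diet and then SZ-A, alkaloids of the mulberry twig (Ramulus Mori, Sangzhi), for a further 8 weeks by the series' design text, while the study's methods give a shorter treatment. By those methods the high-fat diet went on through the treatment period in HFD and SZ-A mice alike. The mice were male and were fasted overnight before death by the study's methods, and the dose and route of the sequenced SZ-A mice are not given in the sources used here. NC6 carries a high-fat diet label that contradicts its own title and was kept in NC. Mice are named by group and replicate number, and p-values measure the spread between these mice.

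Hepatocyte identity rests on a small network of factors that bind each other's genes as well as the genes of liver function. HNF4A and LRH-1, the product of Nr5a2, are nuclear receptors that act on lipoprotein, bile acid and gluconeogenic genes. The FOXA proteins are pioneer factors that open chromatin, C/EBPα and C/EBPβ act on gluconeogenic and acute-phase genes, and ONECUT1 (HNF6) and PROX1 act in liver development and in adult metabolism.

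From the RefSeq promoter table (GRCm38.p6), 14 promoters of the 9 members were used, each of full length and on the chromosome of its gene. The 250 bases before each start were searched on both strands for short motifs of the factors themselves. The stretches shown are those of Foxa1, Foxa2 and Onecut1, because HFD5 stood apart from the other HFD mice for these 3 transcripts, and of Hnf4a, because it holds a match. Capitals mark the matches, each is printed 5′ to 3′ on the gene's strand, and bases that lie in an annotated exon were left out. They lie at chr2:163506607-163506807 (Hnf4a, + strand), chr2:148046970-148047219 (Foxa2, − strand), chr12:57546122-57546361 (Foxa1, − strand) and chr9:74861671-74861920 (Onecut1, + strand).
Hnf4a: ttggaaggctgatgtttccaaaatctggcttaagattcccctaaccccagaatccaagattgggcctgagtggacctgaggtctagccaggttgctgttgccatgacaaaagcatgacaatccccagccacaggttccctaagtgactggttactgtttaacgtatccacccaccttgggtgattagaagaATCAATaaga
Foxa2: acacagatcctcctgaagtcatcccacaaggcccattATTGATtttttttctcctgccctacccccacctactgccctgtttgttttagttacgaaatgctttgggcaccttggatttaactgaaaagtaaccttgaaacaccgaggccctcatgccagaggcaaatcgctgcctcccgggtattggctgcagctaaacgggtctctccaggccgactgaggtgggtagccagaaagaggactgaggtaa
Foxa1: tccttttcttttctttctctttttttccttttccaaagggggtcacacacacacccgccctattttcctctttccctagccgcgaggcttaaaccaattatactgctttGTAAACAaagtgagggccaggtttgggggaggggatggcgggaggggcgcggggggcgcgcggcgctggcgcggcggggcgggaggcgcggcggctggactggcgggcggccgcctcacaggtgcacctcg
Onecut1: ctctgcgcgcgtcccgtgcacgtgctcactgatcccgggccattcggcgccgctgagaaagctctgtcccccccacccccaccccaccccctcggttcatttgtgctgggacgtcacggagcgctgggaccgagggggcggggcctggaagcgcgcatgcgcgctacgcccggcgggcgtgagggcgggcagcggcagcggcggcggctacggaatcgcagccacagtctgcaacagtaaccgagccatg
The ONECUT1 motif ATCAAT was found 59 bases before the upstream start of Hnf4a and, on the other strand, 213 bases before the first start of Foxa2. It is present in 6.72% of all 32851 promoters of this length. The FOXA motif TGTTTAC, held by 3.17% of promoters, was found on the other strand 141 bases before the RefSeq start of Foxa1. That start and its window lie within the Foxa1 gene as the expression table places it, chr12:57540628-57546916. The C/EBP motif TTGCNNAA, held by 9.56%, was found 243 bases before the second start of Nr5a2, also on the other strand. No member promoter held the FOXA form TATTTAC (2.73% of promoters), the ONECUT1 form ATCGAT (0.728%), the HNF4A motif CAAAGTCCA (0.384%) or the LRH-1 motif CAAGGTCA (1.33%), which says only that these letters are not in these windows. The Onecut1 window held no match, and 71.6% of its bases were G or C against a median of 52.4% over all promoters.

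On GRCm38, Hnf4a lies at chr2:163506808-163572910, Nr5a2 at chr1:136842571-136960448, Foxa1 at chr12:57540628-57546916, Foxa2 at chr2:148042877-148046969 and Foxa3 at chr7:19013284-19023538. Cebpa lies at chr7:35119293-35121928, Cebpb at chr2:167688915-167690418, Onecut1 at chr9:74861921-74891781 and Prox1 at chr1:190118035-190170714.

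The members spanned a wide range of levels. Cebpa had the highest mean over the 18 mice (230 FPKM), followed by Hnf4a (170), Cebpb (134), Foxa3 (32.4), Prox1 (13.4), Foxa2 (11.8), Nr5a2 (10.2), Foxa1 (7.30) and Onecut1 (3.11). Among the 1469 genes to which the table assigns a transcription factor family, these means gave Cebpa rank 1, Hnf4a rank 3 and Cebpb rank 5. Foxa3 ranked 21, Prox1 58, Foxa2 66, Nr5a2 87, Foxa1 125 and Onecut1 280. The step from Cebpb to Foxa3 and that from Foxa3 to Prox1 held in 18 of 18 mice. Other neighbours in the order exchanged places in some mice: Cebpa exceeded Hnf4a in 15 of 18, Hnf4a exceeded Cebpb in 13, Prox1 exceeded Foxa2 in 14, Foxa2 exceeded Nr5a2 in 12, Nr5a2 exceeded Foxa1 in 17 and Foxa1 exceeded Onecut1 in 16. The mean log2 difference within a mouse was smaller than its SD over the 18 mice for Hnf4a and Cebpb (0.34 ± 0.47), Prox1 and Foxa2 (0.21 ± 0.56) and Foxa2 and Nr5a2 (0.16 ± 0.43), and just above it for Cebpa and Hnf4a (0.45 ± 0.42). These differences were not tested.

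**Figure D1:**
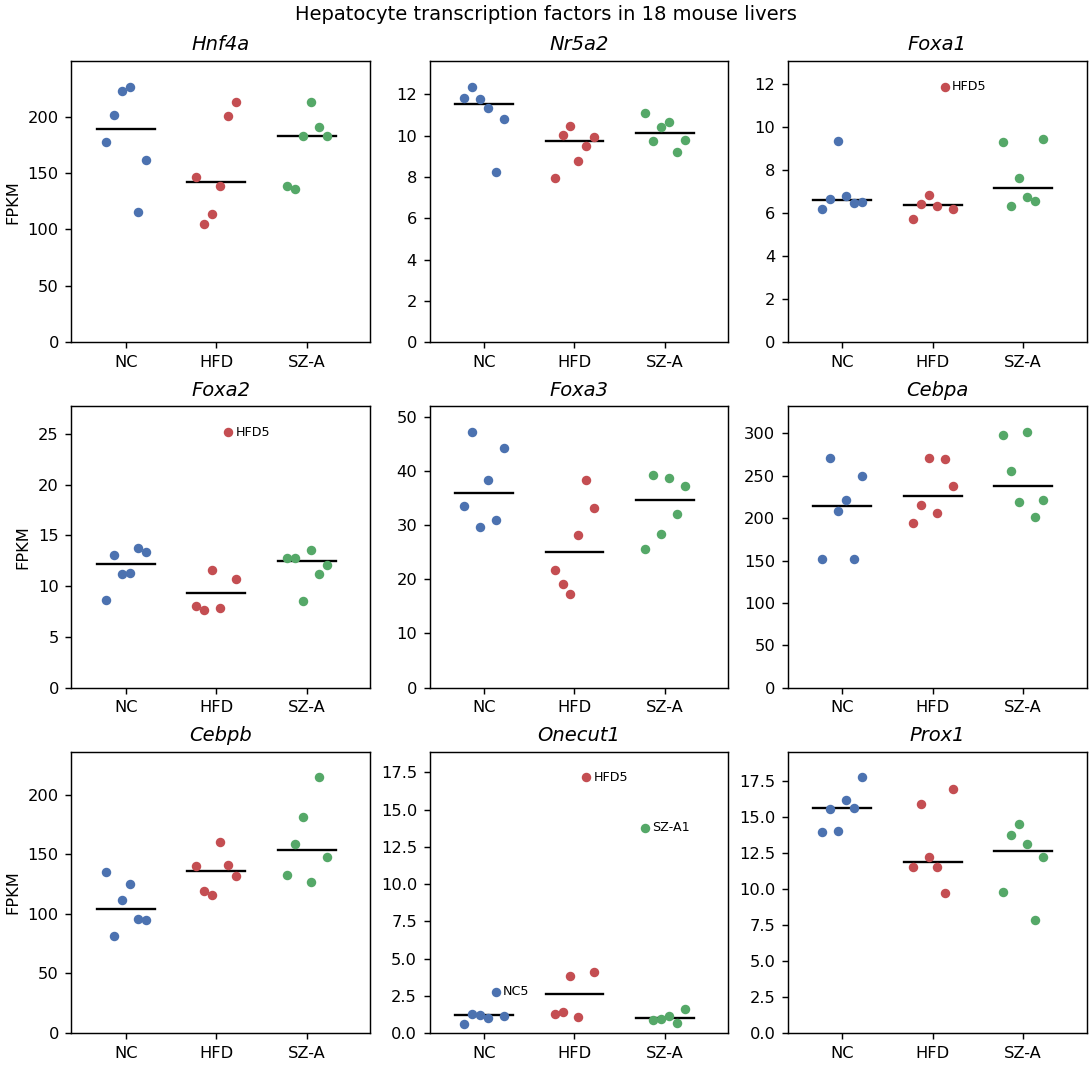
FPKM of each of the 9 factors (y axis, linear, from 0) in the NC, HFD and SZ-A livers (x axis). Each point is 1 mouse and each bar the median of 6 mice. The groups overlap in every panel, and Onecut1 stands at 17.2 in HFD5 and 13.8 in SZ-A1.

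The livers were of similar depth, with 17163191 to 20493907 fragments on genes per mouse, and the members were covered by 45 fragments (Onecut1, lowest mouse) to 22179 fragments (Hnf4a, highest mouse). The labelled tissue carried its defining transcripts: Alb lay between 16117 and 37152 FPKM, and all 15 hepatocyte markers were tested. Of the 7 fetal hepatocyte markers none reached a mean of 1 FPKM and Lin28b was at 0 in every mouse, and of the 6 pancreas acinar markers none exceeded 1 FPKM in any mouse. NC5 correlated least with the other mice of its group over all genes tested (mean r = 0.951), followed by SZ-A5 (0.959) and HFD5 (0.967).

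No member passed the test between HFD and NC or between SZ-A and HFD, and Cebpb alone passed it between SZ-A and NC, where it rose 1.49-fold. The test was limma with trend on log2(FPKM + 0.1) with Benjamini-Hochberg adjustment over 10216 genes, and a call required both an adjusted p below 0.05 and at least a 1.2-fold change. In HFD against NC, 0 of 9 members were called, against 20.2% of all genes tested. At an unadjusted p under 0.05 there were 3 of 9 (Foxa3, Cebpb and Prox1), beside 3559 of all 10216 genes tested, a similar share. Voom on whole fragments also called 0 of 9. The median log2 fold change of the 9 was −0.13, beside −0.03 over all genes.

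In SZ-A against HFD, 0 of 9 members were called, where the background was 0.147% of genes, and voom again called 0. At an unadjusted p under 0.05 there were 0 of 9, beside 1515 of all 10216 genes tested. The median log2 difference of the members was 0.11, beside 0.03 over all genes. In SZ-A against NC, 1 of 9 members was called, Cebpb, against a background of 9.6%, and the medians were −0.01 over the members and −0.01 over all genes. Each group enters 2 of the 3 comparisons, so the 3 sets of differences are not independent.

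**Figure D2:**
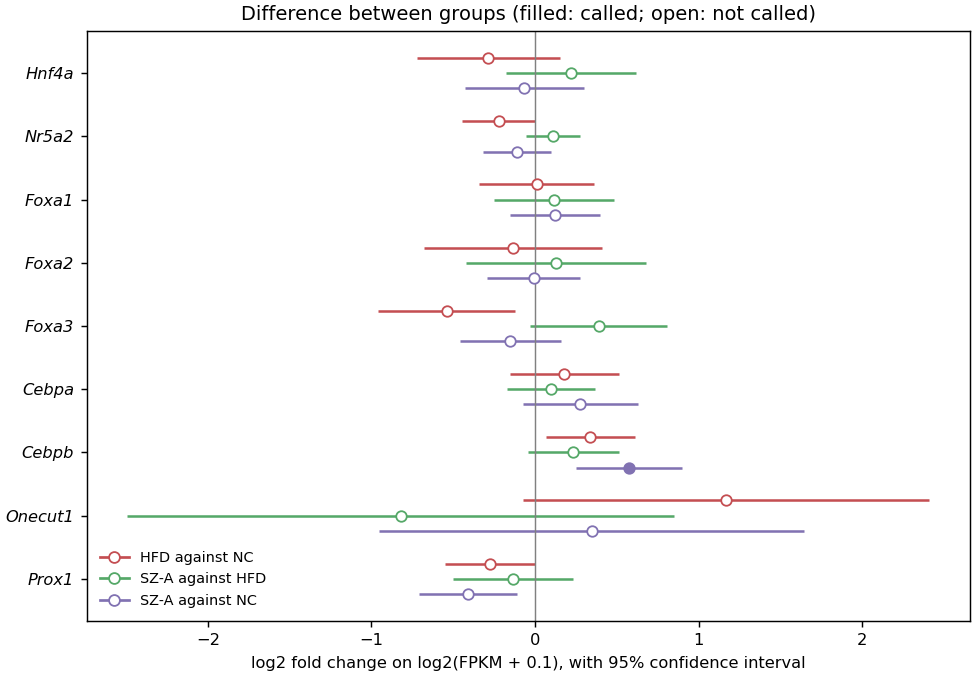
Log2 fold change on the log2(FPKM + 0.1) scale (x axis) of the 9 factors (y axis) in the 3 comparisons of 6 against 6 mice, with 95% confidence intervals. Cebpb in SZ-A against NC (0.57) is the only filled point, and the intervals of Onecut1 are the widest.

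Among the nuclear receptors, Hnf4a, which binds the promoters of a large share of hepatocyte genes, ran from 116 to 227 FPKM in NC (median 189), from 105 to 214 in HFD (median 143) and from 136 to 213 in SZ-A (median 183). HFD2 and HFD3 were the lowest of all 18 mice, and the 3 groups overlapped. The log2 difference was −0.28 ± 0.20 (SE, n = 6 per group) in HFD against NC with an adjusted p = 0.346 by limma, and its 95% interval ran from −0.72 to 0.15. It was called in 1 of 26 alternative analyses, with sample weights. SZ-A against HFD gave 0.22 ± 0.18 (adjusted p = 0.62, limma) and SZ-A against NC gave −0.07 ± 0.17 (adjusted p = 0.856, limma). Gene-level values cannot separate the transcripts from the upstream and the downstream start of Hnf4a. The antisense gene Hnf4aos overlaps it at 1.29 to 7.83 FPKM, and reads of the 2 strands cannot be told apart in these libraries.

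Nr5a2 encodes LRH-1, a regulator of bile acid synthesis and reverse cholesterol transport. It had narrow groups: 8.25 to 12.4 FPKM in NC (median 11.5), 7.93 to 10.4 in HFD (median 9.71) and 9.22 to 11.1 in SZ-A (median 10.1). All NC mice other than NC5, which was the lowest of its group, lay above all 6 HFD mice. The log2 difference in HFD against NC was −0.22 ± 0.10 (SE) with an adjusted p = 0.148 by limma, and without NC5 it was −0.30 with an adjusted p = 0.0148, a call. Over 26 alternatives, of which 3 called it, its adjusted p ran from 0.0148 to 0.887. The differences of SZ-A from HFD (0.11, 95% interval −0.06 to 0.27) and from NC (−0.11, interval −0.32 to 0.09) did not pass the test.

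Of the forkhead factors, Foxa3, the most abundant FOXA in adult liver and a regulator of glucose homeostasis during fasting, ran from 29.7 to 47.2 FPKM in NC (median 35.9), from 17.3 to 38.3 in HFD (median 25.0) and from 25.5 to 39.2 in SZ-A (median 34.7). In HFD, 4 of the 6 mice lay below every NC mouse, while HFD5 and HFD6 lay among them. The log2 difference in HFD against NC was −0.54 ± 0.20 (SE), 0.687-fold, with an adjusted p = 0.0647 by limma, and its 95% interval ran from −0.96 to −0.12. Foxa3 was called in 5 of 26 alternatives: without HFD5 (−0.66, adjusted p = 0.0221), without HFD6 (−0.62, adjusted p = 0.0488), in a fit of all 18 mice (adjusted p = 0.0388), with sample weights, and without NC5 and HFD5 together. Over the 26 its adjusted p ran from 0.0151 to 0.198. The SZ-A mice differed from HFD by 0.39 ± 0.19 (interval −0.03 to 0.81, adjusted p = 0.37, limma), by 0.51 without HFD5, and from NC by −0.15 ± 0.14 (adjusted p = 0.555, limma).

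Foxa1 and Foxa2 both had their highest value of all 18 mice in HFD5. Foxa2, which acts on fatty acid oxidation and ketogenesis in fasting, ran from 8.66 to 13.8 FPKM in NC (median 12.1), from 7.60 to 25.2 in HFD (median 9.32) and from 8.50 to 13.5 in SZ-A (median 12.4). HFD5 held the 25.2, and the next HFD mouse was at 11.6. The log2 difference in HFD against NC was −0.13 ± 0.25 (SE, adjusted p = 0.741, limma) with HFD5 and −0.38 (adjusted p = 0.0829, limma) without it, where the alternatives gave adjusted p-values of 0.0829 to 0.961. Foxa1 ran from 6.20 to 9.34 FPKM in NC (median 6.61), from 5.72 to 11.9 in HFD (median 6.36) and from 6.35 to 9.44 in SZ-A (median 7.18). Here too HFD5 was highest, with the other HFD mice at or below 6.84, and the log2 difference in HFD against NC moved from 0.01 ± 0.16 (adjusted p = 0.973, limma) to −0.14 without HFD5. In SZ-A against HFD the differences were 0.11 (interval −0.25 to 0.48) for Foxa1 and 0.13 (interval −0.42 to 0.68) for Foxa2, and without HFD5 they were 0.26 (adjusted p = 0.246, limma) and 0.37 (adjusted p = 0.201, limma).

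Within each mouse, Foxa3 was the most abundant of the 3 FOXA transcripts and Foxa2 exceeded Foxa1, in 18 of 18 mice each. The Foxa3 share of their summed FPKM ran from 59.1% to 70.6% in NC (median 68.5%), from 48.4% to 66.5% in HFD (median 59.6%) and from 53.6% to 67.2% in SZ-A (median 64.1%). The groups overlapped, and the share, which does not depend on the scaling between mice, was given no test.

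**Figure D3:**
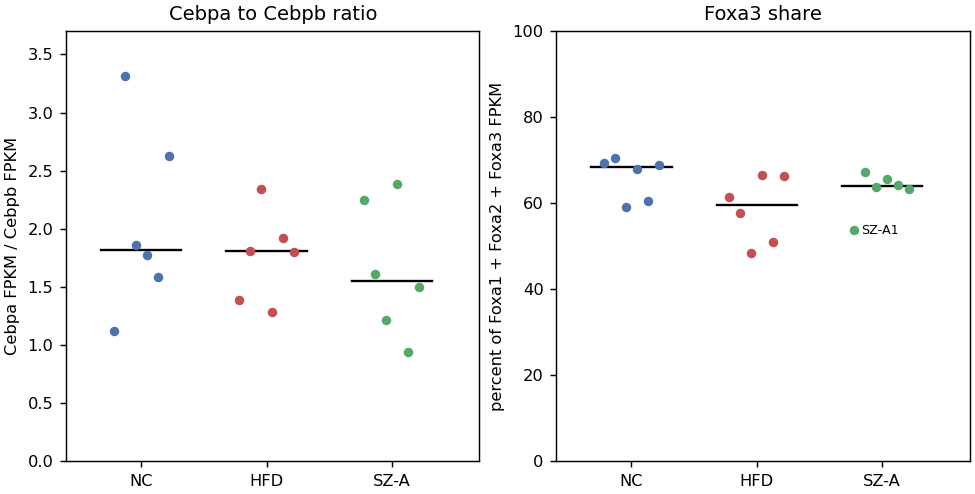
Left, the Cebpa to Cebpb ratio of FPKM in each mouse, and right, the share of Foxa3 in the summed FPKM of Foxa1, Foxa2 and Foxa3 in percent, for NC, HFD and SZ-A (x axis). Points are mice and bars are medians of 6 mice. The ratio lies between 1.12 and 3.31 in NC, 1.28 and 2.34 in HFD and 0.939 and 2.39 in SZ-A, and the groups overlap in both panels.

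Of the C/EBP factors, Cebpb, which is induced in the acute-phase response and in gluconeogenesis, was the member called. It ran from 81.7 to 136 FPKM in NC (median 104), from 116 to 160 in HFD (median 136) and from 126 to 215 in SZ-A (median 153). Below every SZ-A mouse lay 5 of the 6 NC mice, and only NC1 reached into the SZ-A range. In SZ-A against NC the log2 difference was 0.57 ± 0.15 (SE), 1.49-fold, with a 95% interval of 0.25 to 0.90 and an adjusted p = 0.0301 by limma. Without SZ-A5, the SZ-A mouse with the most Cebpb, it was 0.48 (adjusted p = 0.0415, limma). Over 26 alternatives it ran from 0.48 to 0.64 with adjusted p-values of 0.0111 to 0.0942, and it was called in 18. The 8 analyses that lost the call included those without NC2 (adjusted p = 0.0619), NC3 (0.0504), NC6 (0.0557), SZ-A2 (0.0541), SZ-A3 (0.0732) or SZ-A6 (0.0526), and the one in which genes of low level were tested too (0.0942).

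In HFD against NC, Cebpb differed by 0.34 ± 0.13 (SE, interval 0.07 to 0.61), 1.26-fold, with an adjusted p = 0.0731 by limma. It was called in 3 of 26 alternatives, without NC1 (0.41, adjusted p = 0.033) and after scaling to a common sum or to plain fragment totals, with adjusted p-values of 0.0124 to 0.154 over the 26. SZ-A against HFD gave 0.23 ± 0.13 (interval −0.04 to 0.51, adjusted p = 0.424, limma) and 0.15 without SZ-A5. The HFD mouse and the SZ-A mouse with the most Cebpb, HFD4 (160 FPKM) and SZ-A5 (215 FPKM), were also the highest of their groups for the acute-phase genes Saa1 (1051 and 883 FPKM), Lcn2 (168 and 101), Orm1 (1635 and 1629) and Hp (5093 and 5776). These 4 were picked from the 12 C/EBP targets counted below after the values were known, and the pattern was not tested. Others of the 12 went the other way. HFD4 was the lowest HFD mouse for Hamp (615 FPKM), G6pc (34.6) and Cps1 (358). SZ-A5 was the lowest SZ-A mouse for Alb, Gys2 and Dgat2. Both mice were the highest of their groups for Tat. Macrophages also express Cebpb, and the summed level of 11 macrophage markers ran from 212 to 382 FPKM in NC, from 367 to 585 in HFD and from 331 to 471 in SZ-A. Their part in the Cebpb difference was not tested. In bulk liver, more cells of a type and more RNA per cell cannot be told apart.

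Cebpa, which drives the adult hepatocyte programme and restrains proliferation, ran from 152 to 271 FPKM in NC (median 215), from 195 to 271 in HFD (median 227) and from 202 to 302 in SZ-A (median 238). The groups overlapped almost fully. The log2 difference was 0.18 ± 0.15 (SE) in HFD against NC (adjusted p = 0.445, limma), 0.10 ± 0.12 in SZ-A against HFD (adjusted p = 0.764, limma) and 0.28 ± 0.16 in SZ-A against NC (adjusted p = 0.314, limma). Cebpa exceeded Cebpb in 17 of 18 mice. The ratio of their FPKM ran from 1.12 to 3.31 in NC (median 1.81), from 1.28 to 2.34 in HFD (median 1.81) and from 0.939 in SZ-A5 to 2.39 in SZ-A (median 1.55), with overlapping groups and no test. On the other strand, Tmem189 overlaps Cebpb by 908 bases at 5.74 to 13.7 FPKM and Gm45091 overlaps Cebpa by 313 bases at 0.0998 to 6.00 FPKM.

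Onecut1, a homeodomain factor of bile duct and hepatocyte development, was the most variable member, with a 27.6-fold range over the 18 mice. It ran from 0.622 to 2.76 FPKM in NC (median 1.19), from 1.08 to 17.2 in HFD (median 2.61) and from 0.654 to 13.8 in SZ-A (median 1.04). A single mouse stood far above the others in HFD (HFD5, next 4.12) and in SZ-A (SZ-A1, next 1.61), and NC5 stood above the other NC mice (next 1.27). The log2 difference in HFD against NC was 1.17 ± 0.58 (SE, interval −0.07 to 2.41) with an adjusted p = 0.167 by limma, and it was 0.66 (adjusted p = 0.269) without HFD5 and 1.39 (adjusted p = 0.109) without NC5, while over 25 alternatives its adjusted p ran from 0.0447 to 0.351. Against HFD, SZ-A gave −0.82 ± 0.77 (adjusted p = 0.662, limma), −0.31 without HFD5 and −1.43 without SZ-A1. Against NC, SZ-A gave 0.35 ± 0.60 (adjusted p = 0.776, limma) and became −0.26 without SZ-A1 and 0.57 without NC5. Onecut2, its paralogue in liver, lay between 3.22 and 9.92 FPKM and exceeded Onecut1 in 16 of 18 mice, HFD5 and SZ-A1 being the exceptions.

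The 3 mice with the highest Onecut1 of their groups were NC5, HFD5 and SZ-A1. Of the 10216 genes tested, 81 (0.793%) were highest in the same 3 mice, with Onecut1 the only member among them. Socs2, a suppressor of cytokine signalling that growth hormone induces, stood at 4.02 FPKM in NC5 (other NC mice 0.507 to 2.09), at 7.63 in HFD5 (others 0.25 to 1.66) and at 2.72 in SZ-A1 (others 0.471 to 1.19). Cish, a suppressor of the same family, was too low to be tested but was also highest in those mice, at 1.73, 4.89 and 2.51 FPKM. Socs2 and Cish were chosen after their values were seen, and why they are highest in these mice was not tested. HFD5 was the highest HFD mouse for 4 of 9 members, Foxa1, Foxa2, Foxa3 and Onecut1, and the lowest for Prox1, whereas SZ-A1 was the lowest of its group for Foxa3.

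**Figure D4:**
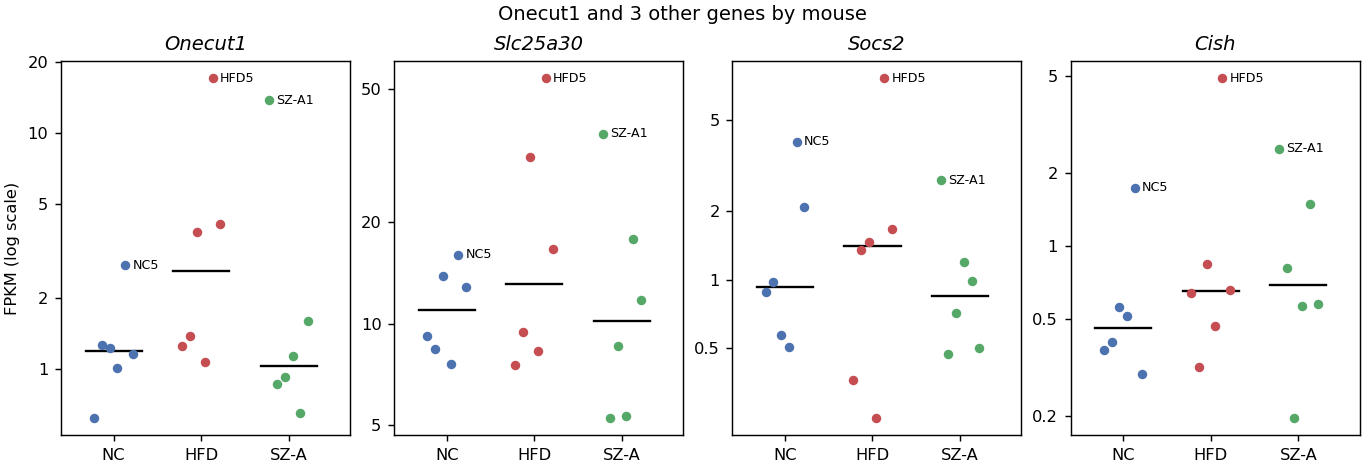
FPKM on a log scale (y axis) of Onecut1, of Slc25a30, the gene most like it over the 18 mice, and of Socs2 and Cish in NC, HFD and SZ-A (x axis). Points are mice and bars medians of 6 mice, and NC5, HFD5 and SZ-A1 are the highest of their groups in all 4 panels.

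Prox1, a co-repressor of HNF4A and LRH-1, ran from 13.9 to 17.7 FPKM in NC (median 15.6), from 9.72 to 16.9 in HFD (median 11.9) and from 7.81 to 14.5 in SZ-A (median 12.6). Of the HFD mice 4, and of the SZ-A mice 5, lay below every NC mouse. The log2 difference was −0.28 ± 0.13 (SE, interval −0.55 to −0.0027) in HFD against NC with an adjusted p = 0.14 by limma, and Prox1 was called without HFD6 (−0.36, adjusted p = 0.0478, the lowest of a range that reached 0.714). The SZ-A mice differed from NC by −0.41 ± 0.14 (interval −0.71 to −0.11) with an adjusted p = 0.0786 by limma, and it was called in 0 of 26 alternatives, with adjusted p-values of 0.0617 to 0.193. SZ-A against HFD gave −0.13 ± 0.17 (adjusted p = 0.761, limma), and between −0.21 without HFD5 and −0.02 without SZ-A5 when single mice were left out. Lymphatic endothelium also expresses Prox1, and the 9 endothelial markers summed to 67.1 to 84.5 FPKM in NC mice, while HFD mice had 78.6 to 94.6 and SZ-A mice 76.8 to 83.9. The sum covers endothelium in general, with Clec4g at 16.0 to 26.8 FPKM and Pdpn at no more than 0.219. It does not measure lymphatic endothelium alone. The part of endothelial cells in the Prox1 values was not tested. The antisense gene Prox1os overlaps Prox1 by 419 bases and lay between 4.64 and 16.0 FPKM.

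These differences are on the deposited scale, and some other scalings change the sign of the small ones. Giving every mouse the same summed FPKM moved the median of all genes by 0.19 on the log2 scale in HFD against NC and by −0.17 in SZ-A against HFD, and the share of called genes that were higher in HFD than in NC went from 53.0% to 86.3%. A scaling moves all genes of a mouse together, so the distance of a member from the median of all genes is nearly fixed by construction. In HFD against NC it was 0.37 to 0.38 for Cebpb over 5 scalings, −0.51 to −0.50 for Foxa3, −0.25 for Hnf4a and −0.11 to −0.10 for Foxa2. Without that correction, a common sum turned the sign of Foxa2 in HFD against NC and in SZ-A against NC, and of Nr5a2, Foxa1, Foxa2 and Cebpa in SZ-A against HFD. Median-ratio scaling and voom on fragments turned the sign of no member. Each moved the median of all genes by 0.025 in HFD against NC and by −0.022 in SZ-A against HFD.

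Other regulators of the liver were counted beside the members. Of 27 such genes, 25 were tested. In HFD against NC 3 rose, 1 fell and 21 did not pass, a called share of 16% beside the background of 20.2%. Thrb, the thyroid hormone receptor β (0.50 ± 0.13, adjusted p = 0.0137, limma), Zhx2, a postnatal repressor of fetal liver genes (0.49 ± 0.12), and Nr1i3, the xenobiotic receptor CAR (0.38 ± 0.12), rose. Creb3l3, a fasting-induced factor of the endoplasmic reticulum, fell by 0.29 on the log2 scale and was called in 11 of 26 alternatives. Thrb, Zhx2 and Nr1i3 were also the 3 called in SZ-A against NC, at 0.50, 0.63 and 0.69, a share of 12% beside a background of 9.6%. Between SZ-A and HFD 0 of 25 were called by limma, beside a background of 0.147%. There 3 had an unadjusted p under 0.05, beside 1515 of all 10216 genes tested. The gene with the largest value was Hhex (0.61 ± 0.32, adjusted p = 0.404, limma). The median over the 25 was 0.03 in HFD against NC, 0.09 in SZ-A against HFD and 0.14 in SZ-A against NC.

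The genes these factors are known to act on were counted next. Lists of targets held 33 distinct genes, of which 32 were tested. The lists overlap: Pck1 and G6pc are on the HNF4A, FOXA and C/EBP lists, and Tat and Alb on the FOXA and C/EBP lists. Cyp7a1 and Cyp8b1 are on the HNF4A and LRH-1 lists, and Ttr is on the HNF4A and FOXA lists. The counts per list are therefore not separate results for each factor. In HFD against NC 6 rose and 10 fell, beside a background of 20.2% of all genes tested. In SZ-A against HFD 1 rose, beside 0.147%, and in SZ-A against NC 2 rose and 6 fell, beside 9.6%. The same backgrounds hold for each list below. Like the other gene lists, these were written with earlier results of these data known. Their counts beside the background are therefore no test of the targets. For the counts at an unadjusted p under 0.05 in SZ-A against HFD, the background was 1515 of all 10216 genes tested.

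Of 16 HNF4A targets, 1 rose and 4 fell in HFD against NC, with a median of −0.13. Cyp8b1, the sterol 12α-hydroxylase of bile acid synthesis, lay between 95.5 and 281 FPKM in HFD and between 447 and 627 in NC, without overlap, and fell by 1.71 ± 0.22 (adjusted p = 0.00025, limma). The gluconeogenic genes G6pc (−1.26 ± 0.38, called in 16 of 26 alternatives) and Pck1 (−1.15 ± 0.15) fell, as did Mttp, the lipid transfer protein of VLDL assembly (−0.57), while Cyp7a1, the rate-limiting enzyme of bile acid synthesis, rose (0.80 ± 0.26) and was called in 15 of 26 alternatives. The 3 called in SZ-A against NC were all lower: Cyp8b1 (−1.31 ± 0.09), Pck1 (−0.61 ± 0.15) and Mttp (−0.30 ± 0.07). Between SZ-A and HFD 0 of 16 were called by limma and 5 had an unadjusted p under 0.05, and Pck1 had the largest value (0.54 ± 0.15, adjusted p = 0.133, limma).

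Of the 7 FOXA targets 6 were tested, and in HFD against NC 4 fell and 0 rose, with a median of −1.21. They were Igfbp1, a fasting-induced binding protein of insulin-like growth factors (−2.16 ± 0.67, called in 15 of 26 alternatives), Tat, tyrosine aminotransferase (−1.47 ± 0.28), G6pc and Pck1. Of these 4 only Igfbp1 is on no other target list. Only Pck1 was called in SZ-A against NC, and in SZ-A against HFD 0 of 6 were called by limma, 2 had an unadjusted p under 0.05 and Tat had the largest value (0.65 ± 0.26, adjusted p = 0.275, limma).

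Of the 12 C/EBP targets, 4 rose, 6 fell and 2 did not pass in HFD against NC, with a median of −0.68. The acute-phase genes Lcn2 (4.34 ± 0.56) and Saa1 (3.64 ± 0.74) rose, Lcn2 from a range of 0.685 to 5.92 FPKM in NC to 15.6 to 168 in HFD. Tat and the iron hormone Hamp (−1.46 ± 0.35) fell. Saa1, Orm1 and Hamp have close copies in the genome, and reads may be split among them. Between SZ-A and NC 2 rose, Lcn2 (3.22 ± 0.75) and the triglyceride enzyme Dgat2 (0.76 ± 0.10), and 4 fell, among them Hamp (−2.14 ± 0.43) and the urea cycle enzyme Cps1 (−1.09 ± 0.16). None of the 12 was called by limma in SZ-A against HFD and 4 had an unadjusted p under 0.05, with Lcn2 at −1.12 ± 0.81 (adjusted p = 0.557, limma).

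Of the 7 LRH-1 targets, 2 rose and 2 fell in HFD against NC. Abcg5, which with its partner Abcg8 exports sterols into bile, rose by 0.73 ± 0.20, from 17.4 to 29.9 FPKM in NC to 24.5 to 60.4 in HFD, and was called in 24 of 26 alternatives, and Cyp7a1 was the other that rose. Cyp8b1 fell, and Apom, the apolipoprotein of sphingosine-1-phosphate transport, fell by 0.89 ± 0.10. Apom was the target called in SZ-A against HFD: it lay between 91.6 and 121 FPKM in HFD and between 125 and 200 in SZ-A, without overlap, a log2 difference of 0.74 ± 0.12 (adjusted p = 0.0341, limma), called in 14 of 26 alternatives. Between SZ-A and NC 0 rose and Cyp8b1 fell.

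**Figure D5:**
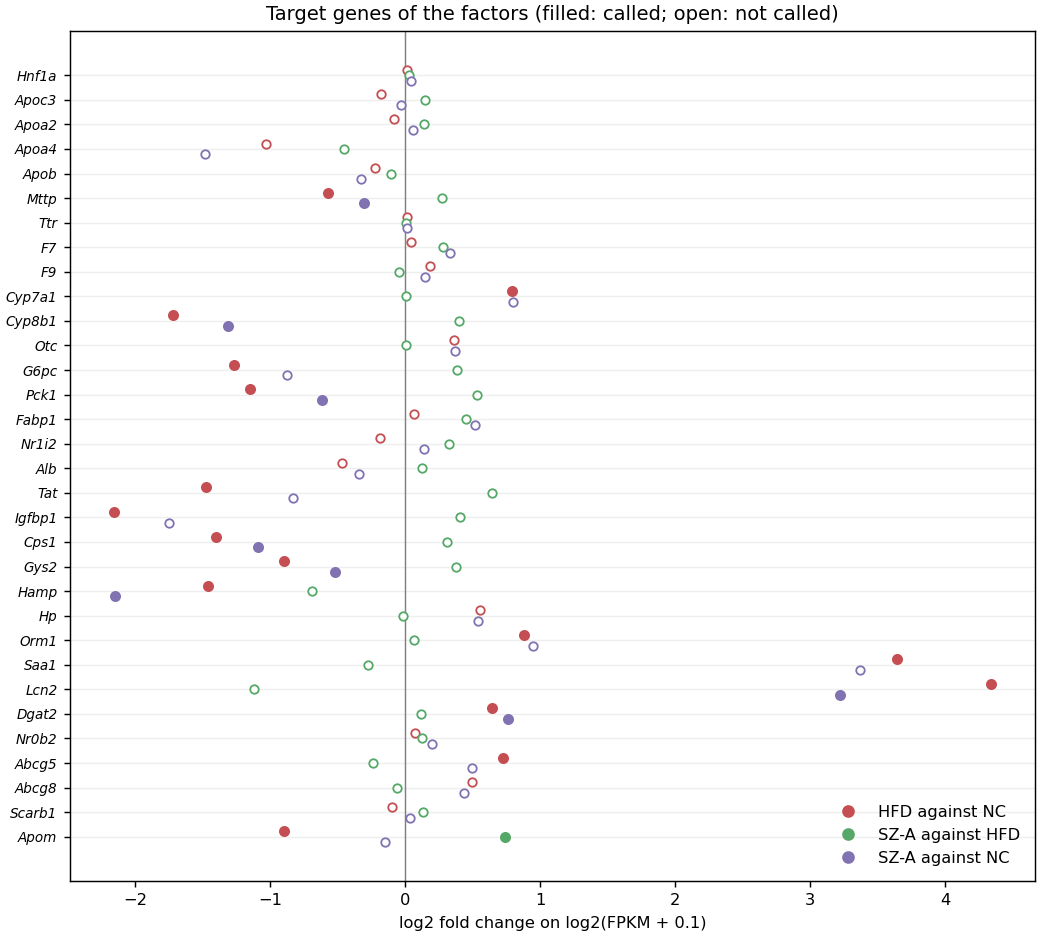
Log2 fold change on the log2(FPKM + 0.1) scale (x axis) of the 32 tested target genes (y axis) in HFD against NC, SZ-A against HFD and SZ-A against NC. Filled points passed the test and open points did not. Lcn2 (4.34) and Saa1 (3.64) lie farthest to the right and Igfbp1 (−2.16) farthest to the left.

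Markers of hepatocytes and of other liver cells were counted in the same way, and no list was tested as a whole. The background of called genes was 20.2% in HFD against NC, 0.147% in SZ-A against HFD and 9.6% in SZ-A against NC. At an unadjusted p under 0.05 the background for all marker lists was 1515 of 10216 genes in SZ-A against HFD. In SZ-A against NC it was 2602 of 10216. Of 15 hepatocyte markers 1 rose, 5 fell and 9 did not pass in HFD against NC, with Tat, Cps1 (−1.40), Ass1 (−1.08) and Apoa1 (−0.91) the largest, and their summed level ran from 61573 to 89557 FPKM in NC, from 45730 to 69038 in HFD and from 56400 to 81560 in SZ-A. Several are themselves targets of the factors. Cps1 and Ass1 were called lower in SZ-A than in NC, and in SZ-A against HFD 0 of 15 were called by limma and 6 had an unadjusted p under 0.05, with Apoa1 at 0.78 ± 0.14 (adjusted p = 0.0557, limma). Where limma called 0 genes of a list in SZ-A against HFD, voom on whole fragments also called 0, except for 2 of the hepatocyte markers. Of 11 macrophage markers 6 rose in HFD against NC (Cd68 1.35, Lyz2 1.05, Adgre1 0.88, Cd5l 0.78), 1 fell in SZ-A against HFD (Cd68, −0.64), and Cd68 (0.71) and C1qb (0.50) were higher in SZ-A than in NC. Adgre1 was called in 15 and Cd5l in 14 of 26 alternatives in HFD against NC, and Cd68 was called in 26 in that comparison, in 13 in SZ-A against HFD and in 16 in SZ-A against NC.

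Of 7 stellate markers 5 rose in HFD against NC, with Col1a1 at 2.53 and Pdgfrb at 0.88, then Lrat (0.62) and Reln (0.55). In SZ-A against HFD 0 were called by limma and 3 had an unadjusted p under 0.05, with Col1a1 at −1.79 (adjusted p = 0.1, limma), and in SZ-A against NC Rgs5 was higher (0.48, called in 12 of 26 alternatives). Of 8 tested endothelial markers, Lyve1 (0.91, called in 14 of 26 alternatives) and Eng (0.30) rose in HFD against NC, a share of 25%. None was called by limma in the other 2 comparisons, where 3 had an unadjusted p under 0.05 in SZ-A against HFD (Lyve1 −0.96, adjusted p = 0.156) and 0 in SZ-A against NC (Clec4g 0.21, adjusted p = 0.247). Of 7 cholangiocyte markers only Sox9 was tested, and it was lower in SZ-A than in NC (−0.62). The 7 summed to 3.07 to 4.29 FPKM in NC mice, 2.43 to 3.50 in HFD mice and 2.11 to 16.3 in SZ-A mice, with the highest sum in SZ-A5. The part of these cell types in the members' values was not tested.

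For each member, the gene most like it was found by the root mean square difference of standardized log2 levels over the 18 mice, where 0 is an identical pattern and the median over all genes was 1.34 to 1.39. The closest were Casd1 to Nr5a2 (0.435), Slc22a30 to Cebpa (0.477), Rnf168 to Hnf4a (0.50), Elf2 to Foxa3 (0.504) and Gm5884 to Cebpb (0.514). They were followed by Abhd17b to Foxa2 (0.532), Slc25a30 to Onecut1 (0.558), Ankrd33b to Prox1 (0.599) and Trim41 to Foxa1 (0.636). No member was the closest gene to another. The most alike members were Hnf4a and Foxa3 (0.815) and Foxa1 and Foxa2 (0.846), but other genes were nearer to each. Among the 10216 genes tested, there were 296 nearer to Hnf4a, 135 to Foxa3, 54 to Foxa1 and 93 to Foxa2. The member nearest to Onecut1, Foxa1, stood at 0.851, and 51 genes were nearer. For Cebpb the nearest member, Hnf4a, stood at 1.31, and 3953 genes were nearer.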

How the data were processed

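Liver poly(A) RNA of 18 mice was made into libraries with the NEBNext Ultra RNA kit per the labels, and the submitters' processing notes name HISAT2 2.0.5, featureCounts 1.5.0-p3 and mm10. The authors deposited FPKM values per gene and mouse. The kit does not mark strand, and strand use in counting is not given in the sources used here. In each mouse 100% of the values were within 0.05 of a whole number of fragments, so fragments were recovered: 17163191 to 20493907 per mouse. The library sizes behind the deposited FPKM, over these totals, had medians of 0.979 (NC), 1.11 (HFD) and 1.01 (SZ-A), so they hold a scaling beyond depth.

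Genes with a mean of at least 1 FPKM (10216) were tested on log2(FPKM + 0.1), which understates changes of low genes, with limma 3.58.1 (trend, two-sided, Benjamini-Hochberg) in R 4.3.3, separately for each pair of groups. Calls required an adjusted p below 0.05 and at least a 1.2-fold change. The scripts were tested on simulated data. No pair of libraries in a group agreed within sampling noise (chi-square per degree of freedom at least 20.3).

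Named genes are all members, the up to 4 called genes of largest change from each list and comparison, or the largest if none was called, and the gene most like each member. Socs2, Cish, Onecut2, Gys2, and Saa1, Orm1, Hp and other C/EBP targets by mouse were added after their values were seen. The members and lists were chosen with earlier results of these data known. Some genes of the lists are not reported here and were left out of the counts. Alternatives were 2 other pseudocounts, no filter or a mean of at least 5 FPKM, other scalings, one fit of all mice, no trend, sample weights, a replicate block, voom on fragments, no fold threshold, and each mouse left out. Plain fragment totals and 2 joint omissions (HFD5 with SZ-A1, and NC5 with either) were added after seeing the data. Promoters came from RefSeq on GRCm38.p6. Figures were drawn with matplotlib.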

Additional observations from a re-analysis of the deposited data

Results flagged for a closer look

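Dixon's test at 95% was applied to each group of 6 mice for the 9 members, the Cebpa to Cebpb ratio, the Foxa3 share and the other genes named. It was run on linear FPKM, ratio and share values, unlike the fits. Flags can differ on a log scale, which was not tested. For the members, the ratio and the share, 7 of 33 groups had a mouse set apart from the rest. These groups are not independent, since they share mice and the ratio and the share are computed from members. Their count was therefore not set against chance. With the other genes it was 21 of 159, but some of these were chosen because they follow a member over the same mice, so their flags repeat those of the members and the count was not set against chance. On the linear scale Onecut1 stood apart in a mouse of every group, at 2.76 FPKM in NC5, 17.2 in HFD5 and 13.8 in SZ-A1. HFD5 also stood apart for Foxa1 (11.9 FPKM, other HFD mice 5.72 to 6.84) and Foxa2 (25.2 FPKM, others 7.60 to 11.6). NC3 stood apart for Foxa1 (9.34 FPKM, others 6.20 to 6.81). In SZ-A1 the Foxa3 share was 53.6%, against 63.3% to 67.2% in the other SZ-A mice.

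The genes most like the members had these values set apart: Abhd17b (17.8 FPKM) and Trim41 (10.8) in HFD5, Casd1 (4.59) in NC5 and Gm5884 (9.67) in SZ-A5. Among the list genes, NC5 was apart for Hamp (7251 FPKM), Apoa1 (13420) and Cd68 (2.80). SZ-A5 was apart for Igfbp1 (436 FPKM, others 9.45 to 43.9), Nr1i3 (6.57) and Lyz2 (106). HFD4 was apart for Saa1 (1051 FPKM, others 58.5 to 152) and Lcn2 (168), and NC1 for Lcn2 (5.92) and Abcg5 (29.9, others 17.4 to 21.7). No cause was tested.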

How the results depend on the processing

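The number of members called moved with the setting. In HFD against NC it was 0 and became 1 with a common sum per mouse, with plain fragment totals and with all 18 mice in one fit, 2 without NC5 and HFD5 together, and 3 with sample weights, and leaving out single mice gave 0 to 2. In SZ-A against NC it was 1 and became 0 with no filter on low values, and 0 to 1 with single mice left out. In SZ-A against HFD it was 0 throughout. Replicate numbers did not pair the mice (correlations −0.117 to 0.292), and with the replicate block the counts were 1 in HFD against NC (Onecut1), 0 in SZ-A against HFD and 0 in SZ-A against NC, where Cebpb had an adjusted p = 0.073 by limma.

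Small differences turned sign: in HFD against NC, Foxa2 was 0.056 with a common sum and 0.020 with plain totals, and Foxa1 was −0.13 with sample weights and −0.16 without NC5 and HFD5. In SZ-A against HFD, a common sum gave −0.068 for Nr5a2, −0.062 for Foxa1, −0.050 for Foxa2 and −0.081 for Cebpa, and plain totals gave −0.0038 for Nr5a2 and −0.017 for Cebpa. In SZ-A against NC, Foxa2 was 0.0064, 0.035 and 0.012 with a common sum, plain totals and NC5 and SZ-A1 left out, and Onecut1 was −0.040 in that omission. With single mice left out, Foxa1 in HFD against NC ran from −0.14 to 0.095, and in SZ-A against NC Hnf4a ran from −0.19 to 0.00095, Foxa2 from −0.095 to 0.083 and Onecut1 from −0.26 to 0.58. The causes were not tested. Counted as fragments rather than per length, the median Cebpa to Cebpb ratio was 3.18, 3.16 and 2.72 and the Foxa3 share 61.8%, 51.8% and 56.7% in NC, HFD and SZ-A. Onecut1 rested on as few as 45 fragments in a mouse, and the other members on at least 350.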
